A study of Mus musculus with 4 samples.

Results

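Genes disallowed in mature beta cells are genes that most tissues express and that the insulin-secreting cell keeps at a low level. The 10 examined here were Ldha, Slc16a1, Hk1, Hk2, Oat, Acot7, Maf, Smad3, Igfbp4 and Ndrg2. They were chosen as genes known to be repressed in beta cells, by a rule that uses the symbol and no measured value. Earlier results of these data were also known when they were chosen, so the choice was not blind to the data. Each had 1 row among the 24940 genes of the deposited table. RNA was sequenced from islets of Langerhans, the endocrine cell clusters of the pancreas, of male mice aged 3 to 4 months. There were 2 libraries of Tafazzin-knockdown islets (replicates 3 and 4) and 2 of non-transgenic control islets (replicates 1 and 2). Each library pooled about 300 islets from 2 to 3 mice, and all mice ate a low-fat chow. Tafazzin is the mitochondrial enzyme that remodels cardiolipin. The knockdown mice are transgenic and the controls are not, so that an effect of the transgene and an effect of Tafazzin loss cannot be told apart. The promoter and the cells that drive the transgene are not given in the sources used here.

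A beta cell couples glucose to insulin release by sending nearly all of its pyruvate into the mitochondrion. High-affinity hexokinases would use glucose at a rate that no longer follows its level, lactate dehydrogenase A would divert pyruvate to lactate, and the monocarboxylate transporter MCT1 would import pyruvate made by exercising muscle. Mature beta cells keep such genes low, while ducts, vessels, connective tissue and acinar cells of the pancreas may express them. In a bulk islet library a change in the share of such cells and a change of RNA within beta cells cannot be told apart.

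Because the members are defined by repression, the promoters of 4 of them are shown. Ldha is the best known member, and Hk2, Igfbp4 and Smad3 are the members called higher in knockdown islets below. The sequences are from RefSeq on GRCm38.p6, run 5′ to 3′ on the strand of the gene and span 250 bases before to 50 bases after the start site. Capitals mark ACGTG or its reverse complement CACGT, the core of hypoxia response elements; CACGTG holds both. The windows are chr7:46845554-46845853 (plus strand), chr6:82774405-82774704 (minus strand), chr11:99040994-99041293 (plus strand) and chr9:63757945-63758244 (minus strand). GENCODE transcripts share 12-base words with each window on the strand given and none on the reverse strand. For Ldha these words are few, 4 against 39 in each of Hk2, Igfbp4 and Smad3, and the nearest GENCODE exon of Ldha begins downstream of the RefSeq start used here.
Ldha: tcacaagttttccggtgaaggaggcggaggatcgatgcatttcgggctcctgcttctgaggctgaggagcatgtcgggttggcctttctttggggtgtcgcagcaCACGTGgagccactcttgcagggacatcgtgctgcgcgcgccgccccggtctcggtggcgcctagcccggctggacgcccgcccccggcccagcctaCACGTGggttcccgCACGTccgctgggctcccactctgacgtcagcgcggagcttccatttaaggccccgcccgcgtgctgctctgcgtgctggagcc
Hk2: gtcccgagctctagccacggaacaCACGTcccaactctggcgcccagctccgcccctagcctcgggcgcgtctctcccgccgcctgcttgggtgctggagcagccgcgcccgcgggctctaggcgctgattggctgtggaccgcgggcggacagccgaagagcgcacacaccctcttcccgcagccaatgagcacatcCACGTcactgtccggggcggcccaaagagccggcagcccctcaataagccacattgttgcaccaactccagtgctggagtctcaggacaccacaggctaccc
Igfbp4: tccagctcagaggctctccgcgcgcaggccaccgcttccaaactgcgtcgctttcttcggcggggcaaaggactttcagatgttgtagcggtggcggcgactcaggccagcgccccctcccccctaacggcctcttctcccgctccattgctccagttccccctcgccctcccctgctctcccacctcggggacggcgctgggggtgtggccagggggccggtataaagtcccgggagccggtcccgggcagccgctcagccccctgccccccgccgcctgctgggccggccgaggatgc
Smad3: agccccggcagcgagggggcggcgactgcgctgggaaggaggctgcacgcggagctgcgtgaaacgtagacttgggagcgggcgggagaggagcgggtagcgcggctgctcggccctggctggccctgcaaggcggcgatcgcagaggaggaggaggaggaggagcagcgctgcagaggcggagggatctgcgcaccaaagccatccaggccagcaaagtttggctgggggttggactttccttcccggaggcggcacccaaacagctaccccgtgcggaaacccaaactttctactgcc

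A promoter window starting at the listed gene start was found for 8 of the 10 members, all but Acot7 and Maf. ACGTG stood in 4 of these 8 windows (Ldha, Slc16a1, Hk2 and Oat), against 19.6% of 32851 windows of the same length over all genes. In Ldha it occupied 3 places, the first bases of which lay 145, 48 and 34 bases upstream of the start site. In Hk2 it occupied 2 places, 226 and 52 bases upstream. CAGAC or GTCTG, the SMAD box, stood in 3 of the 8 windows (Slc16a1, Hk1 and Oat) against 49.6% of all. TATAAA or TTTATA stood in 2, Igfbp4 at 28 bases and Ndrg2 at 29 bases upstream, against 13.6% of all. The windows of Ldha, Hk2, Igfbp4 and Smad3 held 30, 25, 27 and 25 CpG dinucleotides, against a median of 7 over all windows, whereas that of Hk1 held 1. ACGTG itself holds a CpG, and the windows of Ldha, Slc16a1, Hk2 and Oat held 30, 42, 25 and 22. The 19.6% was not matched for CpG content, so the 4 of 8 windows were not set against like windows. These matches describe the letters only, and no binding was measured.

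Each value gives the reads of a gene for every 10000000 reads in its library, here a unit. They are not scaled by gene length, and the libraries held 68823160 to 81073502 reads. Most low read counts were even, as when both ends of a fragment are counted, so that the number of independent fragments was about reads over 2. Log2 fold changes (log2FC) are on the log2(value + 1) scale, knockdown minus control. They are given relative to the median of all 13531 tested genes, which was 0.17 on the deposited values and 0.00 after median-ratio scaling, which aligns the libraries on their typical gene. Limma p-values test the unshifted change. Pairs of values stand in the order of replicates 3 and 4 for knockdown islets and of replicates 1 and 2 for control islets. The targeted gene Taz stood at 13.8 and 12.7 units in knockdown islets and 23.1 and 15.4 units in control islets. Both knockdown libraries lay below both controls, yet Taz was not called (log2FC -0.65 ± 0.25 SE, limma adjusted p = 0.529; 0.136 after scaling; edgeR adjusted p = 0.122). A single gene compared across 2 against 2 pools cannot fall below p = 0.333 in an exact two-sided permutation test, so that all calls rest on a spread shared over genes. P-values measure the spread between these pools of mice, shared over many genes. In limma on the deposited values the prior degrees of freedom, the weight of the shared spread, were infinite. There the gap between a gene's own pools had no weight in its p-value. After scaling the prior degrees of freedom were 21.41, and a gene's own gap counted in part.

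Of the 10 members, 3 rose in knockdown islets on the deposited values: Hk2, Igfbp4 and Smad3. No member fell. Of all genes tested, 2.49% (337) were called higher and 0.0443% (6) lower. All 3 calls ended after median-ratio scaling, where 1.12% of all genes (151) were called higher and 21 lower, and in the edgeR quasi-likelihood test on recovered reads, where 1.29% were. In both of these tests 0 members passed the adjusted threshold and 3 had an unadjusted p under 0.05, and DESeq2 called 0 members. No member was called without knockdown replicate 3. In such a fit the lone library of a group is assumed to vary like the other group, which alone supplies the spread. After scaling, leaving out knockdown replicate 4 gave calls for Smad3, Ldha and Igfbp4 (limma adjusted p = 1.88e-05, 0.000772 and 0.0041), and leaving out any other library gave none. Summed stellate cell and fibroblast markers were also higher in both knockdown libraries, at 337 and 267 units against 116 and 118 units in control islets, and the part of other cells in the differences below was not tested. The mean filter of 1 unit admitted 9 members. Maf did not reach it, and Ndrg2 reached it only through the knockdown libraries.

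Hk2, a high-affinity hexokinase that binds the outer mitochondrial membrane (NM_013820; mm10 chromosome 6, 82725027 to 82774454, minus strand), stood at 5.74 and 4.07 units in knockdown islets and 1.45 and 0.740 units in control islets. The knockdown values rest on 44 and 32 reads and the control values on 10 and 6 reads. Both knockdown libraries lay above both controls. The knockdown mean was 4.9 ± 1.18 units and the control mean 1.10 ± 0.504 units (SD, n = 2 each), a ratio of 4.47. Counted as fragments, 38 in knockdown against 8 in control libraries, the ratio was 4.58 with an exact 95% interval of 2.11 to 11.4 that covers counting error only. The log2FC was 1.33 ± 0.38 SE (limma adjusted p = 0.00646). After scaling the size was 1.39 ± 0.37 (limma adjusted p = 0.0649), and edgeR gave 2.00 (adjusted p = 0.0684). Without control replicate 2 the call was lost (limma adjusted p = 0.109), as it was without knockdown replicate 3 (limma adjusted p = 0.642).

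Hk1, the other broadly expressed high-affinity hexokinase (chromosome 10, 62268855 to 62379908, minus strand), stood at 17.2 and 8.90 units in knockdown islets and 8.72 and 12.1 units in control islets. The groups overlapped, and knockdown replicate 4 lay between the controls. The log2FC was 0.09 ± 0.26 SE (limma adjusted p = 0.867). It overlaps the antisense row Hk1os, which held 0.0107 of its level.

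A share within a library does not depend on the scaling between libraries. Hk2 made up 25.0% and 31.4% of the fragments of Hk1 and Hk2 in knockdown libraries and 14.3% and 5.77% in control libraries, a pair set side by side after the values were seen. The Wilson 95% intervals, which cover counting error only, were 17.1% to 35.0% and 20.3% to 45.0% in knockdown and 6.26% to 29.4% and 1.98% to 15.6% in control libraries. Both knockdown shares lay above both control shares. The intervals of both knockdown libraries lay above that of control replicate 2 and overlapped that of control replicate 1. Over gene length, Hk1 stood at 0.118 units per kb in knockdown and 0.0937 in control libraries, and Hk2 at 0.0992 in knockdown and 0.0222 in control libraries.

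Ldha, the subunit of lactate dehydrogenase that favours lactate formation (NR_102727; chromosome 7, 46845804 to 46855627, plus strand), was the most abundant member, at 53.2 and 25.7 units in knockdown islets and 19.5 and 29.1 units in control islets. Only knockdown replicate 3 lay above both controls, and knockdown replicate 4 lay between them. The knockdown mean was 39.4 ± 19.5 units and the control mean 24.3 ± 6.82 units (SD, n = 2 each). Ldha was not called (log2FC 0.45 ± 0.25 SE, limma adjusted p = 0.233; 0.590 after scaling; edgeR adjusted p = 0.518). Without knockdown replicate 3 the log2FC was -0.05, and without control replicate 2 it was 0.86, with a call on the deposited values (limma adjusted p = 0.00133) and none after scaling (limma adjusted p = 0.375). Ldha made up 90.7% and 86.3% of the fragments of Ldha and Ldhb, the gene of the other subunit, in knockdown replicates 3 and 4 and 81.7% and 88.1% in control replicates 1 and 2. These shares overlapped as well, with Wilson intervals of 86.2% to 93.8% and 78.9% to 91.4% in knockdown and 72.0% to 88.6% and 81.5% to 92.5% in control libraries.

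Slc16a1, the gene of MCT1 (chromosome 3, 104638664 to 104658462, plus strand), stood at 4.96 and 3.31 units in knockdown islets and 2.33 and 2.47 units in control islets. Both knockdown libraries lay above both controls, on 38 and 26 against 16 and 20 reads. The log2FC was 0.41 ± 0.36 SE and did not pass the test (limma adjusted p = 0.638, edgeR adjusted p = 0.761). The ratio of fragments was 1.72, with an exact 95% interval of 0.934 to 3.25. Among Slc16a1, Slc16a3 and Slc16a7, genes of related monocarboxylate transporters chosen for comparison after the values were seen, its share of fragments was 35.2% and 44.8% in the knockdown libraries and 21.6% and 25.0% in the controls. The Wilson intervals of the shares, 23.8% to 48.5% and 28.4% to 62.5% in knockdown against 11.4% to 37.2% and 14.2% to 40.2% in control libraries, all overlapped.

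**Figure D1:**
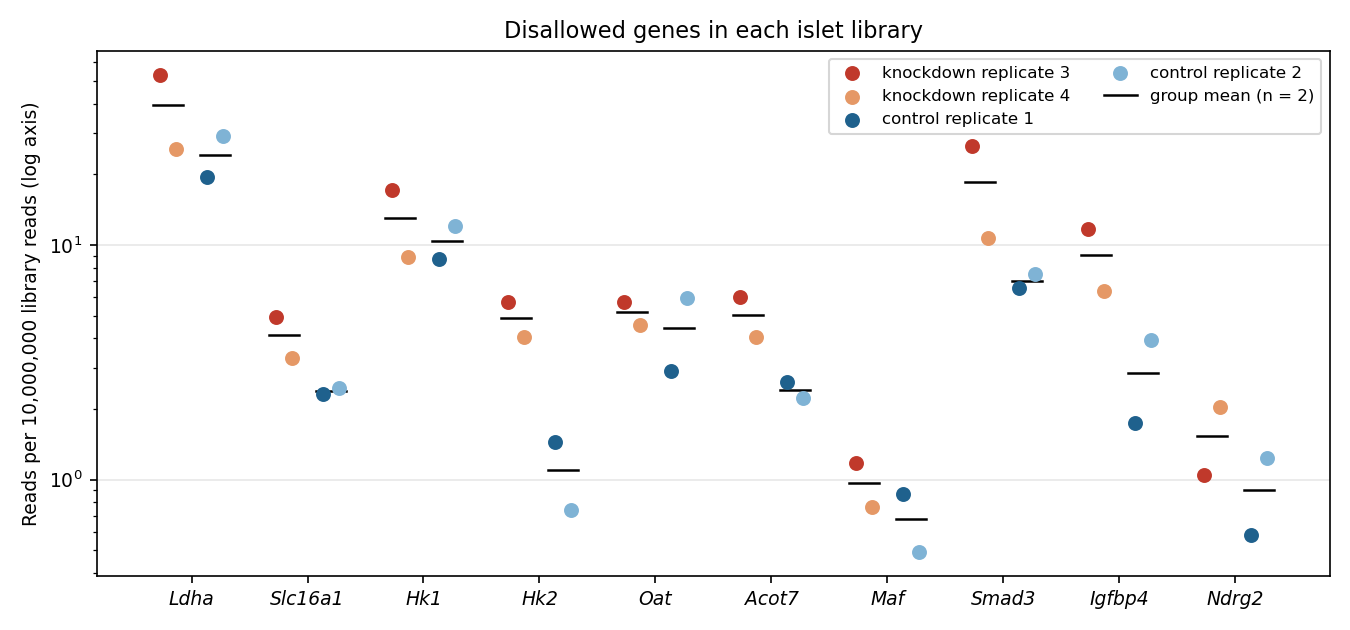
Level of each member in reads per 10000000 library reads, on a log axis, in the 2 knockdown libraries (red and orange) and the 2 control libraries (dark and light blue), with group means as black lines. Hk2 separates at 5.74 and 4.07 units in knockdown against 1.45 and 0.740 units in control libraries, whereas the Ldha libraries overlap.

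Oat and Acot7 act on other substrates. Oat, ornithine aminotransferase of the mitochondrial matrix (chromosome 7, 132557475 to 132576398, minus strand), stood at 5.74 and 4.58 units in knockdown islets and 2.91 and 5.92 units in control islets. The knockdown values lay between the controls, and the log2FC was 0.07 ± 0.32 SE (limma adjusted p = 0.900; -0.01 by edgeR). Acot7, an acyl-CoA thioesterase that cleaves long-chain acyl-CoA (chromosome 4, 152178100 to 152271855, plus strand), stood at 6.0 and 4.07 units in knockdown and 2.62 and 2.22 units in control libraries. Here the groups separated, on 46 and 32 against 18 and 18 reads. The difference of 0.64 ± 0.34 SE did not pass the test (limma adjusted p = 0.296, edgeR adjusted p = 0.538). The ratio of fragments was 2.09, with an exact 95% interval of 1.17 to 3.88 for counting error.

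Smad3, the transcription factor that carries TGF-beta and activin signals to the nucleus (NM_016769; chromosome 9, 63646767 to 63757994, minus strand), stood at 26.5 and 10.7 units in knockdown islets and 6.54 and 7.52 units in control islets. Both knockdown libraries lay above both controls, but the 2 knockdown pools differed more from each other than knockdown replicate 4 did from the controls. Smad3 rose on the deposited values (log2FC 0.99 ± 0.26 SE, limma adjusted p = 0.00101). The adjusted p was 0.110 by limma after scaling and 0.0528 by edgeR. Without knockdown replicate 3 the log2FC was 0.39 (limma adjusted p = 1.0) and without knockdown replicate 4 it was 1.59 (limma adjusted p = 0.000187). Against Smad2, its closest relative, also set beside it after the values were seen, Smad3 made up 47.0% and 25.5% of the fragments of both genes in the knockdown libraries and 17.8% and 21.7% in the controls. The interval of knockdown replicate 3, 40.5% to 53.6%, lay above all others, and that of knockdown replicate 4, 19.4% to 32.6%, overlapped those of both controls (12.2% to 25.3% and 15.7% to 29.1%).

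Maf, the bZIP factor c-MAF and a relative of the insulin gene activator Mafa (chromosome 8, 115703253 to 115706894, minus strand), stood at 1.17 and 0.763 units in knockdown islets and 0.872 and 0.493 units in control islets. That is 9 and 6 reads against 6 and 4 reads, and the groups overlapped. With no filter on low values its log2FC was 0.07 (limma adjusted p = 0.871). The ratio of fragments was 1.54 with an exact 95% interval of 0.445 to 6.0, so that a difference was not detectable at this depth.

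Igfbp4, a secreted protein that binds insulin-like growth factors (NM_010517; chromosome 11, 99041244 to 99052655, plus strand), stood at 11.7 and 6.36 units in knockdown islets and 1.74 and 3.95 units in control islets. Both knockdown libraries lay above both controls, on 90 and 50 against 12 and 32 reads. The knockdown mean was 9.05 ± 3.80 units and the control mean 2.85 ± 1.56 units (SD, n = 2 each), a ratio of 3.18. Igfbp4 rose on the deposited values (log2FC 1.23 ± 0.31 SE, limma adjusted p = 0.000719). The adjusted p was 0.0921 by limma after scaling, 0.10 by edgeR and 0.816 by limma without knockdown replicate 3. Without control replicate 1 the log2FC was 0.67 (limma adjusted p = 0.0485), against 1.79 without control replicate 2. Among Igfbp3, Igfbp4, Igfbp5 and Igfbp7, a set chosen after the values were seen, its share of fragments was 3.86% and 2.25% in the knockdown libraries and 0.774% and 2.13% in the controls. The share in knockdown replicate 4 (Wilson 95% interval 1.53% to 3.30%) was close to that in control replicate 2 (1.32% to 3.43%). Its interval overlapped those of both controls. The interval of knockdown replicate 3 (2.90% to 5.13%) lay above that of control replicate 1 (0.355% to 1.68%) and overlapped that of control replicate 2.

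Ndrg2, a cytoplasmic protein of the N-myc downstream-regulated family (chromosome 14, 51905271 to 51914004, minus strand), stood at 1.04 and 2.03 units in knockdown islets and 0.581 and 1.23 units in control islets. The groups overlapped. It was the 1 tested member with a lower value in knockdown replicate 3 than in knockdown replicate 4, on 8 against 16 reads. The difference of 0.24 ± 0.48 SE did not pass the test (limma adjusted p = 0.891).

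**Figure D2:**
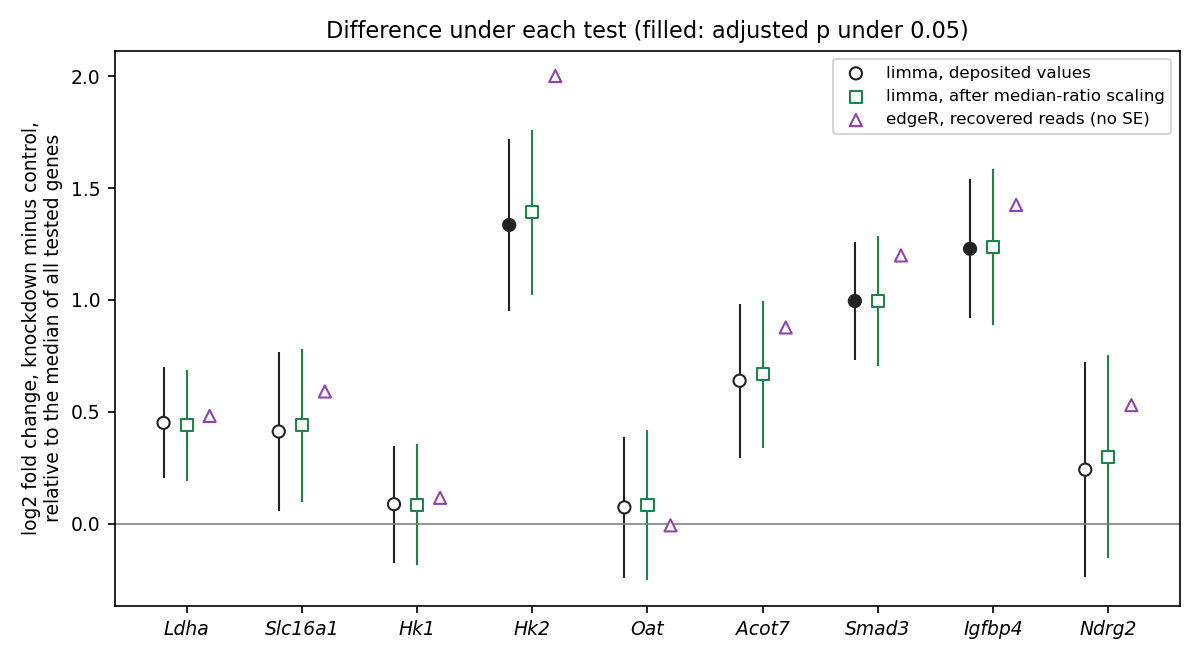
Log2 fold change (log2FC), knockdown minus control, relative to the median of all tested genes, for the 9 tested members by limma on deposited values (circles), limma after median-ratio scaling (squares) and edgeR on recovered reads (triangles). Bars are ± 1 SE, which edgeR does not give, and filled symbols have an adjusted p under 0.05. The sizes for Hk2, Igfbp4 and Smad3 are similar with and without scaling, and their symbols are filled on the deposited values only.

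By limma on the deposited values all 9 tested members lay above the median of all genes, as 50% of all tested genes did. Oat lay just below it by edgeR (-0.01), and Oat, Hk1, Ldha and Ndrg2 lay below it when some single libraries were left out. On the deposited values 5 of the 9 tested members (Slc16a1, Hk2, Acot7, Smad3 and Igfbp4) had both knockdown libraries above both controls, where 34.9% of all tested genes did, and none had both below, where 4.49% did. After scaling the count was again 5, where 20.4% of all genes did. The difference exceeded the wider gap between pools of 1 group in 3 of the 9 (Hk2, Igfbp4 and Acot7) and in 19.7% of all genes. Smad3 was called although its knockdown pools differed by 1.23 on the log2(value + 1) scale. The median difference of the 9 was 0.45, against 0 for all genes by definition, and it describes these 9 only, since Maf is not among them.

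The pools of 1 group also differed in a common direction. Knockdown replicate 3 lay above knockdown replicate 4 in 8 of 9 tested members, where 54.5% of all genes did. Control replicate 2 lay above control replicate 1 in 7 of 9, where 22.6% of all genes did. After scaling, control replicate 2 lay above control replicate 1 in 8 of 9, where 51.1% of all genes did. Hk2 was the exception after scaling, at 1.40 units in control replicate 1 and 0.873 in control replicate 2. The members are not independent of each other in this, since they were measured in the same 4 libraries.

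Levels between genes are compared per kb of the listed gene length, introns included. Whether reads were counted over exons or whole gene bodies is not given in the sources used here, and with exon counts this scale places long genes such as Hk2, Acot7, Hk1 and Smad3 too low. In control libraries the order was Ldha (2.47 units per kb), Igfbp4 (0.249), Oat (0.233), Maf (0.187), Slc16a1 (0.121), Ndrg2 (0.104), Hk1 (0.0937), Smad3 (0.0632), Acot7 (0.0258) and Hk2 (0.0222). The control values of Igfbp4 and Oat, Oat and Maf, Slc16a1 and Ndrg2, Ndrg2 and Hk1, and Acot7 and Hk2 overlapped, so that these neighbours did not differ beyond their spread. In knockdown libraries Ldha stood at 4.02 and Igfbp4 at 0.793 units per kb, and Hk2 at 0.0992 was above Acot7 at 0.0537. On this scale 9 members were among the lower tested genes in the controls, the highest of them Oat and Igfbp4 with 27.8% and 29.1% of tested genes below them and the lowest Hk2 with 3.93%. Ldha had 82.2% of tested genes below it on the same scale, and stood below Slc2a2 (6.80 units per kb) and Mafa (143 units per kb), genes of the beta cell.

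All of 14 other genes reported as disallowed in beta cells were tested. On the deposited values 3 rose (Tgm2, Zfp36l1 and Mgst1) and none fell, where 2.49% and 0.0443% of all genes did. After scaling and by edgeR 2 rose, where 1.12% and 1.29% of all genes did. The log2FC of each of the 14 exceeded 0, as 50% of all genes did, with a median of 0.50. Cd302, Igf1 and Itih5 reached the mean filter of 1 unit only through the knockdown libraries, which favoured a positive sign. Their control means were 0.537, 0.828 and 0.639 units. Tgm2, a transglutaminase that crosslinks proteins, stood at 32.3 and 20.9 units in knockdown islets and 9.30 and 6.41 units in control islets. It rose with and without scaling (log2FC 1.46 ± 0.26 SE, limma adjusted p = 1.02e-07; 0.000500 after scaling; edgeR adjusted p = 0.000227), and without knockdown replicate 3 its log2FC was 1.17, with no call on the deposited values (limma adjusted p = 0.0783) and a call after scaling (limma adjusted p = 0.0178). After scaling the call was lost without control replicate 1 or 2 (limma adjusted p = 0.12 and 0.0579). Zfp36l1, which speeds the decay of mRNAs with AU-rich elements, stood at 38.3 and 19.8 units in knockdown and 9.30 and 12.1 units in control libraries (log2FC 1.14 ± 0.25 SE, limma adjusted p = 4.66e-05; 0.0158 after scaling; edgeR adjusted p = 0.00713). Without knockdown replicate 3 the log2FC of Zfp36l1 was 0.69 and the call ended. After scaling the call ended without control replicate 1 (log2FC 0.82), control replicate 2 (1.44) or knockdown replicate 3 (0.68). Mgst1, a microsomal glutathione transferase, stood at 6.0 and 4.32 units in knockdown and 0.872 and 1.48 units in control libraries, on 46 and 34 against 6 and 12 reads. It rose on the deposited values (1.34 ± 0.38 SE, limma adjusted p = 0.00477) but the call ended after scaling (limma adjusted p = 0.0706), in edgeR (adjusted p = 0.0796) and on leaving out knockdown replicate 3 (limma adjusted p = 0.571). The most abundant of the rest were Zyx, a focal adhesion protein, at 33.5 and 16.3 units in knockdown and 14.8 and 20.5 units in control libraries, and the chemokine gene Cxcl12 at 14.6 and 10.4 against 5.52 and 9.13 units. Neither passed the test (limma adjusted p = 0.644 and 0.164), and Zyx overlaps Epha1, which held 0.116 of its level.

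Relatives and partners of the members are genes of the same families or complexes. Of 33 such genes 28 were tested, and the median difference was -0.08. On the deposited values 1 rose and none fell, where 2.49% and 0.0443% of all genes did. The gene that rose was Smad7, the inhibitor of TGF-beta signalling that Smad3 itself is known to induce, at 49.8 and 36.1 units in knockdown islets and 24.1 and 18 units in control islets (log2FC 0.83 ± 0.25 SE, limma adjusted p = 0.00472; 0.0119 after scaling; edgeR adjusted p = 0.00461). On the deposited values the call ended without knockdown replicate 3 (log2FC 0.61, limma adjusted p = 1.0) and without knockdown replicate 4 (log2FC 1.03, limma adjusted p = 0.0958). After scaling the call held without knockdown replicate 4 (limma adjusted p = 0.000272) and ended without any one of the other 3 libraries (limma adjusted p from 0.213 to 0.452). Emb and Bsg, whose proteins escort monocarboxylate transporters to the membrane, stood at 165 and 204 units (Emb) and 248 and 228 units (Bsg) in knockdown libraries and at 198 and 153 units (Emb) and 290 and 218 units (Bsg) in control libraries. Both overlapped between the groups, and Bsg lies within the row of Bc1, so that its reads cannot be told apart. Mafa stood at 113 and 122 units in knockdown and 183 and 125 units in control libraries (-0.53 ± 0.23 SE, limma adjusted p = 0.669), and fell after scaling (limma adjusted p = 0.0199) and by edgeR (adjusted p = 0.0439). Ndrg1, the most abundant relative of Ndrg2, stood at 127 and 113 units in knockdown and 117 and 114 units in control libraries and overlapped.

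**Figure D3:**
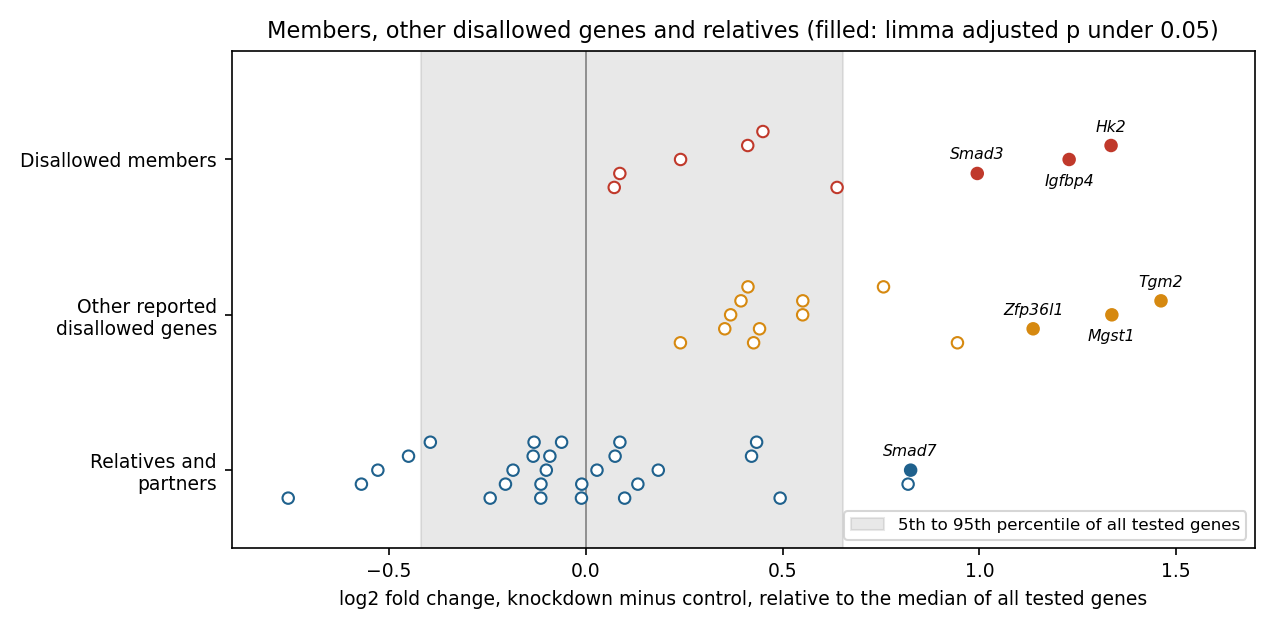
Log2 fold change, knockdown minus control, relative to the median of all tested genes, for the tested members (9), other reported disallowed genes (14) and relatives and partners (28). Filled points have a limma adjusted p under 0.05 on the deposited values, and the grey band spans the 5th to 95th percentile of all tested genes, -0.42 to 0.65. All points of the upper 2 rows lie right of 0, whereas the relatives lie on both sides. Ndrg2, Cd302, Igf1 and Itih5 in the upper rows passed the mean filter only through the knockdown libraries.

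**Figure D4:**
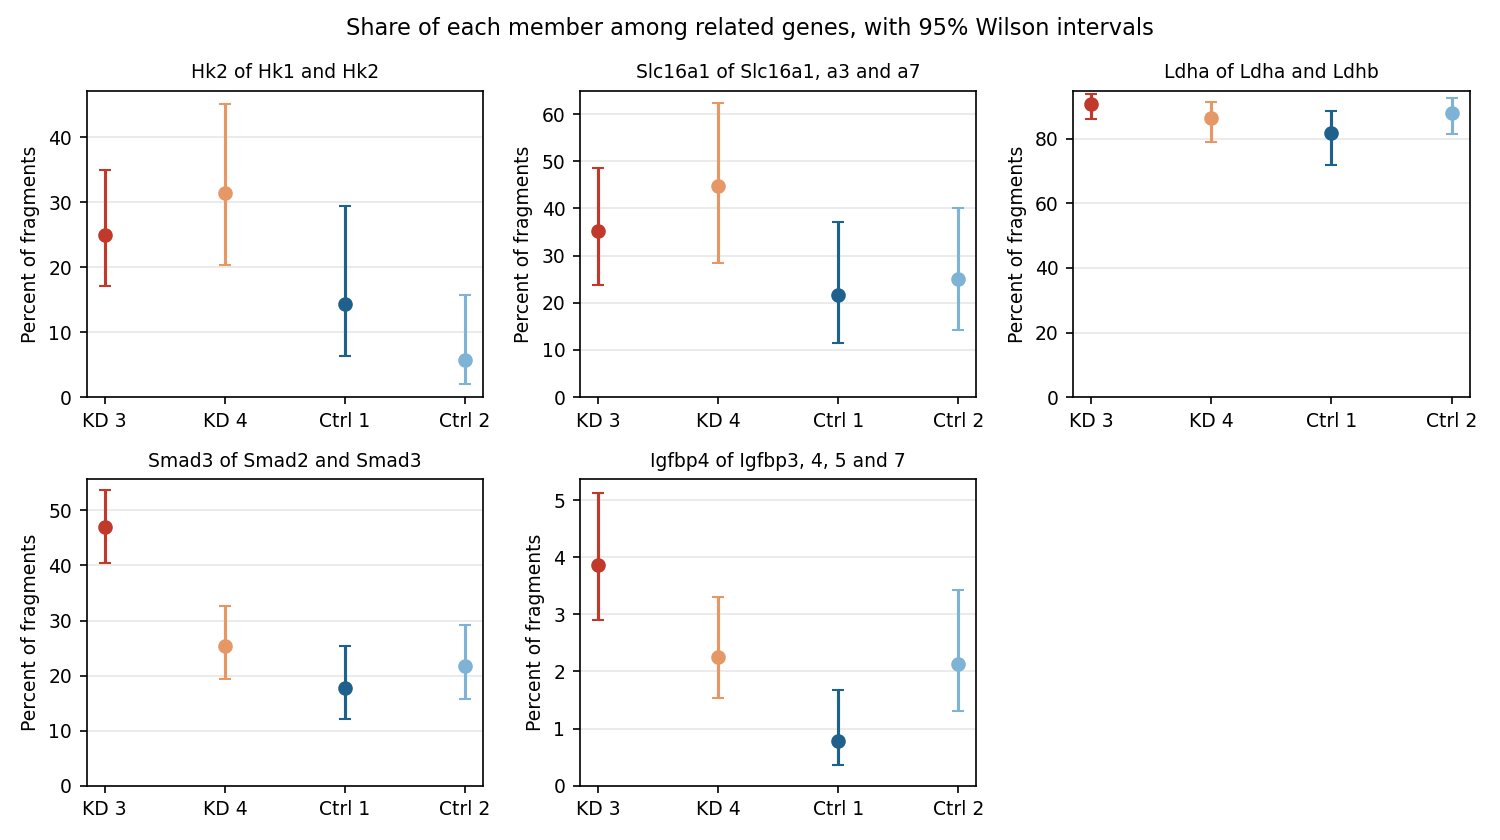
Percent of fragments that a member takes among related genes in each library, with 95% Wilson intervals that cover counting error only (KD, knockdown). The Hk2 share of Hk1 and Hk2 is 25.0% and 31.4% in knockdown against 14.3% and 5.77% in control libraries, while the Ldha share of Ldha and Ldhb overlaps between groups.

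Some markers of other pancreatic cells rose in the same libraries. The 10 stellate cell and fibroblast markers summed to 337 and 267 units in knockdown islets and 116 and 118 units in control islets. On the deposited values 7 of 10 rose and after scaling 6, where 2.49% and 1.12% of all genes did. Lum, called on the deposited values only, and Acta2, not called, reached the mean filter only through the knockdown libraries. Their control means were 0.661 and 0.762 units. The 9 endothelial markers summed to 345 and 267 against 181 and 152 units, with 4 of 9 higher (3 after scaling and by edgeR). The 9 duct markers summed to 1449 and 958 against 765 and 759 units, with 3 of 8 tested higher (1 after scaling, 2 by edgeR). Spp1 alone held 720 and 373 units of these sums in knockdown and 252 and 251 units in control libraries. Both knockdown libraries lay above both controls in 4 of the 8, whereas Krt7, Krt18, Muc1 and the called Krt19 overlapped between the groups. The 9 acinar markers summed to 4526 and 2097 units in knockdown and 2509 and 5176 units in control libraries, with 0 of 7 tested called by limma (0 with an unadjusted p under 0.05) and 0 by edgeR. Acinar markers were thus higher in knockdown replicate 3 than in 4 and in control replicate 2 than in 1. On the deposited values 6 of the 9 tested members had the same order of pools (14.3% of all genes). The share of all genes depends on the scaling, since control replicate 2 lay above 1 in 22.6% of all genes before scaling and 51.1% after it. Among the tested members, control replicate 2 lay above 1 in 8 of 9 after scaling. Knockdown replicate 3 lay above 4 in 8 of 9 after scaling, where 51.5% of all genes did. The 10 beta cell markers, Ins2 and Mafa among them, summed to 83632 and 90809 against 99387 and 78523 units and overlapped. The insulin genes and Iapp make up most of that sum. All 10 beta cell markers had a log2FC below the median of all genes, which 50% of all genes exceeded. Without that shift, the ratio of knockdown mean to control mean ran from 0.762 (Mafa) to 1.03 (Ins1). The median log2FC of the 10 markers was -0.28 (-0.29 after scaling). None was called on the deposited values by limma (0 with an unadjusted p under 0.05), and Mafa was called lower after scaling and by edgeR. Of the alpha cell, delta cell and Schwann cell markers 0 of 4, 0 of 2 and 0 of 4 tested were called by limma (0, 1 and 1 with an unadjusted p under 0.05) and 0 by edgeR, and of 6 tested macrophage markers 1 rose, Lyz2. The 10 members summed to 133 and 70.5 units in knockdown and 47.2 and 65.7 units in control libraries. No marker of these lists was at 0 in every library, and their part in the differences of the members was not tested.

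**Figure D5:**
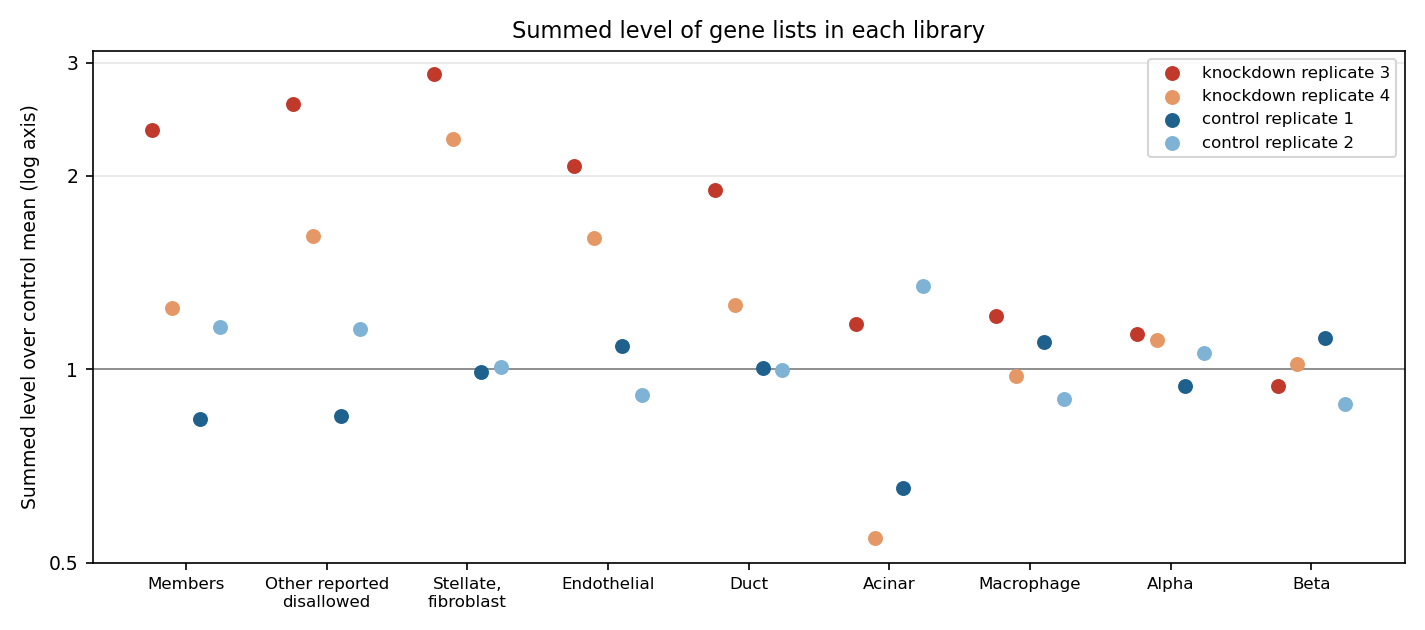
Summed level of each gene list in each library, divided by the mean of the 2 controls, on a log axis. The members stand at 2.36 and 1.25 in knockdown and 0.836 and 1.16 in control libraries. The stellate and fibroblast markers stand at 2.88 and 2.28 in knockdown and 0.991 and 1.01 in control libraries, and the acinar markers at 1.18 and 0.546 in knockdown and 0.653 and 1.35 in control libraries.

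The profiles most like those of the called members were sought among the 8310 tested genes with a mean of at least 10 units, by the root-mean-square difference of centred log2(value + 1) over the 4 libraries. For Hk2 these were Adamts1, a secreted metalloprotease with thrombospondin motifs (0.0907), Tgm2 (0.0950) and Wwc1 (0.0996). For Igfbp4 they were Anxa3 (0.124), Col5a1 (0.128) and Sfn (0.134), and for Smad3 they were Nfib (0.0723), Ephb4 (0.0726) and Notch2 (0.0847). With 4 libraries many genes have such profiles, and the likeness is a description.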

How the data were processed

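Total RNA of 4 islet pools was depleted of ribosomal RNA, randomly primed and built into directional libraries, per the labels' protocols. Per the submitters' processing notes, which give no roles, STAR 2.5.1b, HOMER 4.9, edgeR and mm10 were used. The deposited signal per gene is in reads per 10000000 library reads, with no length scaling although the table's name announces FPKM. In each library 100% of values were whole multiples of 1 read within 0.01 reads, so that read counts could be recovered from the deposited signal. A read is worth 0.123 to 0.145 units. Rn45s took 41.6% to 42.6% of the reads in each library. The listed length equals the genomic span in 99.2% of the 24940 rows, and 6099 rows overlap another. The counted region and strand setting are not given in the sources used here, so reads of overlapping genes cannot be told apart. Of the low counts of 1 to 10 reads, 82.4% to 83.8% were even.

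Genes averaging 1 unit or more and spanning 200 nt or more were fitted with limma 3.58.1 (R 4.3.3, mean-variance trend) on log2(value + 1). All p-values were two-sided and were adjusted by Benjamini-Hochberg over the genes tested in each fit, with calls at 0.05. These were 13531 genes, except 17585 with no filter and 10445 with a mean of at least 5 units. DESeq2 also applied its own filter before adjusting, which left some genes without an adjusted p. Alternatives were edgeR 4.0.16 and DESeq2 1.42.0 on recovered reads, median-ratio scaling, other pseudocounts and filters, and leaving out each library. Limma without scaling and edgeR were also run on counts simulated with the same dispersion for every gene. The real pools need not vary in that way, so that run does not bear on the calls given here. Fragments were taken as reads over 2, rounded up, and intervals cover counting error only. The members and gene lists were chosen from what is known of these genes, with earlier results of these data also known. Named genes were all members, Taz, the called and the 4 most abundant genes of the other disallowed genes and of the relatives, and the 3 profiles nearest to each called member. Promoters are from RefSeq (GRCm38.p6).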

Additional observations from a re-analysis of the deposited data

How the results depend on the processing

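No paired analysis was possible because the groups share no replicate numbers. On the deposited values 337 genes were called higher and 6 lower, 3 members among the higher. The counts of all genes, higher and lower, were 80 and 0 with no filter on low values, 151 and 21 after median-ratio scaling, 528 and 16 by limma without the trend, 174 and 20 by edgeR with TMM, 164 and 19 by edgeR with RLE size factors, 0 and 0 by edgeR with no filter, 83 and 11 by DESeq2, and 160 and 18 by edgeR on halved reads, an alternative chosen after seeing the data. Members called higher were 0 in each of these except limma without the trend. Unadjusted p-values under 0.05 numbered 1143 over all genes in edgeR with no filter. Leaving out each library in turn gave 0 to 1266 genes higher, 0 to 68 lower, 0 to 3 members higher and a members' median difference of 0.25 to 0.88 (0.85 without knockdown replicate 4). Without knockdown replicate 3, 28 genes were higher (45 higher and 49 lower after scaling), without control replicate 2, 59 were lower (74 higher after scaling). The difference of Oat was -0.008 by edgeR with TMM, -0.0071 with RLE, -0.0206 with no filter, -0.0093 by DESeq2 and -0.0026 on halved reads; without 1 library it spanned -0.48 to 0.62. Those of Hk1, Ldha and Ndrg2 spanned -0.35 to 0.51, -0.06 to 0.94 and -0.14 to 0.63. Without knockdown replicate 3, Ldha stood at -0.0532 (-0.061 after scaling), and after scaling Hk1 at -0.3446 and Oat at -0.0457. After scaling without control replicate 1, Hk1 stood at -0.2656, Oat at -0.4542 and Ndrg2 at -0.0279. Hk2, Igfbp4, Smad3, Slc16a1 and Acot7 kept their direction in all alternatives run that tested them. The cause of these changes was not tested. Depth limits Maf, Ndrg2 and Hk2, with 4 to 10 reads in each control library.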
